A study of Mus musculus with 46 samples.

Results

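Binding of RXRa (labelled RXR), CEBPa and CEBPb was followed at 3 loci of bile acid metabolism in mouse liver, Cyp7a1, Cyp8b1 and Abcb11. The members were every peak overlapping chr4:6140000-6260000 (Cyp7a1), chr9:121770000-121880000 (Cyp8b1) or chr2:69020000-69240000 (Abcb11) on the assembly mm9. Overlapping peaks of 42 libraries were merged, which gave 76 member regions holding 975 peaks, of 155509 regions and 1358920 peaks in the genome. The Cyp7a1 window held 16 of these regions, the Cyp8b1 window 30 and the Abcb11 window 30. The windows are 120, 110 and 220 kb long, so their numbers of regions are not levels of the genes. The number of livers with a peak and the width of a peak in bp are the measurements given.

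Livers came from adult male CD-1 mice, described as wild type, given 1 injection of 3 mg/kg TCPOBOP or of its vehicle, DMSO in corn oil, and were collected 3 h or 27 h later. TCPOBOP is an agonist of the nuclear receptor CAR. At 27 h the same 4 TCPOBOP livers (D1 to D4) and 4 vehicle livers (C1 to C4), from mice 8 weeks old, were used for all 3 antibodies. At 3 h RXRa was measured in 3 TCPOBOP livers (B1, B3 and B4) and 3 vehicle livers (A1, A3 and A4) from mice 8 weeks old, and both CEBP factors in 3 TCPOBOP livers (D44 to D46) and 3 vehicle livers (A44 to A46) from mice 7 weeks old. Whole liver was used, so binding in hepatocytes and in other liver cells cannot be told apart. Expression was not measured in these files, and markers of the tissue were not analysed here.

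Cyp7a1 encodes the rate-limiting enzyme of the classical pathway that turns cholesterol into bile acids. Cyp8b1 encodes the sterol hydroxylase that directs the pathway to cholic acid, and Abcb11 the bile salt export pump of the canalicular membrane, which moves bile acids from the hepatocyte into bile. RXRa is the common partner of nuclear receptors, among them CAR and the bile acid receptor FXR, and FXR is known to activate Abcb11 and, through SHP, to repress Cyp7a1 and Cyp8b1. CEBPa and CEBPb belong to the bZIP family and act on many liver genes. This is background and not a result of these lists.

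RefSeq promoters were found for 2 of the 3 genes, on the assembly GRCm38.p6. They are shown because RXRa and its partners are known to bind the promoters of such genes, but no peak could be placed on them, since the peaks are on mm9 and positions were not converted. The 250 bases before each start are written 5′ to 3′ on the strand of the gene, with the match to a nuclear receptor half-site in capitals.
Abcb11, chr2:69342617-69342866, minus strand: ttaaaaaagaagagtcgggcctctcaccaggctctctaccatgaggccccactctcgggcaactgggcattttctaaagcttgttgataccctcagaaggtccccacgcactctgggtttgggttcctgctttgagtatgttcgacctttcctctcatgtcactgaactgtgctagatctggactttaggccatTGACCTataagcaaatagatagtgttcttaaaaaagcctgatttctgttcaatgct
Cyp8b1, chr9:121916306-121916555, minus strand: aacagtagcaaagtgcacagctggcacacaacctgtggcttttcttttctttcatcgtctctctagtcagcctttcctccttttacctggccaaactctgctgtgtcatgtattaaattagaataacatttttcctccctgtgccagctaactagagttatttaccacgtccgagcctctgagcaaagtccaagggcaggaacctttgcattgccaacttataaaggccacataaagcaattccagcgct
Both strands were searched for the half-site AGGTCA, for direct repeats of it (AGGTCANAGGTCA and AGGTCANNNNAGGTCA), for the inverted repeat AGGTCANTGACCT and for the CEBP motif TTNNGCAA. The repeats contain the half-site, so their matches overlap it. Only exact matches were counted, and sites with a mismatch were not counted in any promoter. The Abcb11 promoter held 1 half-site, on the strand opposite the gene and 56 to 51 bases before the start, and no exact match to the other motifs. Together with the letters aggccat just before it, this half-site differs from the inverted repeat in 1 letter. The Cyp8b1 promoter held none of these letters. Of 32851 mouse promoters of this length, 14% held the half-site, 0.0335% and 0.0152% the direct repeats, 0.00609% the inverted repeat and 9.56% the CEBP motif. A match describes letters only.

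No read numbers come with the lists, so depth is unknown. The 42 lists held 11899 to 55513 peaks genome-wide, and 8 to 38 peaks in the 3 windows together. CEBPb lists of 3 h were short (11899 to 22984 peaks), whereas those of 27 h were long (39275 to 55513), and these 2 sets differ also in the run code of their descriptions and in the age of the mice, so CEBPb at 3 h and at 27 h were not tested against each other. Of the 4 input controls of 3 h, both TCPOBOP inputs and 1 of 2 vehicle inputs had no peak in any window. The vehicle input A38 had 1 peak of 175 bp, at the edge of the Abcb11 region chr2:69043093-69044256 that the 1010 bp RXR peak of vehicle liver A1 reached.

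The members were called in more libraries than regions of the genome at large. The median member had a peak in 5.5 of 42 libraries, against 3 for all regions, with medians of 17.5 at Cyp7a1, 6.5 at Cyp8b1 and 5 at Abcb11. Peaks in at least 21 libraries were found at 20 members (26.3%) and at 14.4% of all regions, and peaks in 1 library only at 14 members (18.4%) and at 35.6% of all regions. The windows were chosen for their genes, and these shares are descriptions. RXR was called in all 14 RXR libraries at 14 of the 46 members with any RXR peak (30.4%), against 16.6% of such regions in the genome. Of these, 6 lay at Cyp7a1, 5 at Cyp8b1 and 3 at Abcb11. CEBPa was called in all 14 of its libraries at 7 of 43 members (16.3%, against 14.3% in the genome), and CEBPb at 4 of 54 (7.41%, against 8.28%).

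**Figure D1:**
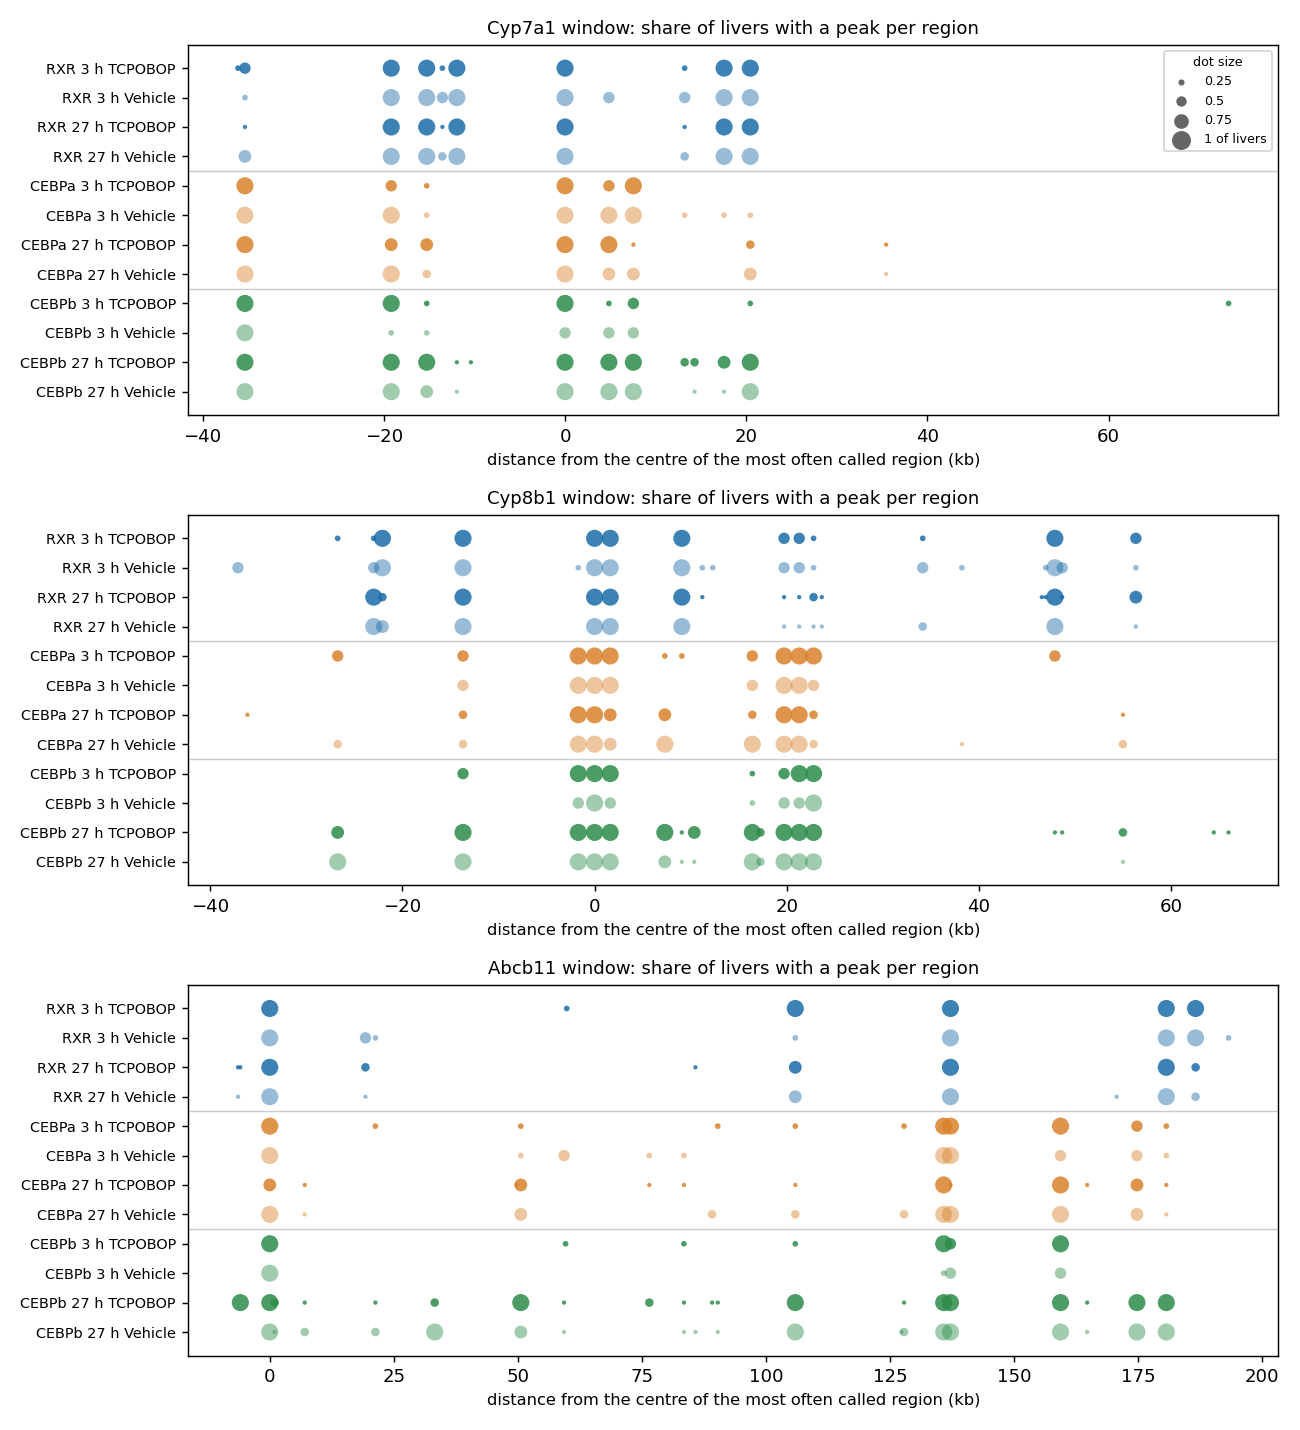
Member regions of each window by distance in kb from the centre of the most often called region (x axis) and by factor, time and treatment (rows). Dot size is the share of the livers of the group with a peak, 3 livers at 3 h and 4 at 27 h. Dark dots are TCPOBOP livers and pale dots vehicle livers, and most large dots stand in both rows of a pair.

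At Cyp7a1 RXR was called in every liver at 6 regions. The region called most often, chr4:6185100-6185673, had a peak in 41 of 42 libraries and missed CEBPb in vehicle liver A45 alone. RXR peaks there were 318 to 570 bp wide, CEBPa peaks 220 to 440 bp and CEBPb peaks 240 to 325 bp. In all 8 livers at 27 h the RXR peak overlapped both the CEBPa and the CEBPb peak of the same liver. The region chr4:6165858-6166557 (38 libraries) also had RXR in all 14 RXR libraries, and the centres of its RXR peaks lay at a median 484 bp from the left edge, against 253 bp for CEBPa and 335 bp for CEBPb. There the RXR peak missed the CEBPb peak of the same liver in 1 of 8 livers, TCPOBOP liver D4.

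Some other Cyp7a1 regions were called mostly for RXR or mostly for the CEBP factors, and others for all 3. CEBP peaks prevailed at chr4:6149707-6150421, with CEBPa and CEBPb in all 14 libraries each and RXR in 7 of 14. Its RXR peaks were found in 2 of 3 TCPOBOP and 1 of 3 vehicle livers at 3 h and in 1 of 4 TCPOBOP and 3 of 4 vehicle livers at 27 h. RXR prevailed at chr4:6173114-6173785, with CEBPa in 0 of 14 and CEBPb in 2 of 14 libraries, and at chr4:6202703-6203178, with CEBPa in 1 and CEBPb in 4 of 14. The region chr4:6205589-6206070 had RXR in all 14 libraries, CEBPb in all 8 livers at 27 h and in 1 of 6 at 3 h (TCPOBOP liver D44). CEBPa was called there in 6 of 14 libraries. At chr4:6169878-6170367 RXR was called in all 14 libraries and CEBPb in 4 of 4 TCPOBOP and 3 of 4 vehicle livers at 27 h. CEBPa was called in 7 of 14 libraries at that region. CEBP peaks with no RXR peak in any library stood at chr4:6192743-6193114, where CEBPa at 27 h was called in 1 of 4 TCPOBOP and 3 of 4 vehicle livers and CEBPb in all 8.

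At Cyp8b1 the region chr9:121812600-121813776 was the only member with a peak in all 42 libraries, a property of 1.53% of all regions. It was followed 761 bases on by chr9:121814538-121815093 (39 libraries) and preceded by chr9:121811282-121811697, where CEBPa was called in 14, CEBPb in 13 and RXR in 1 of 14 libraries. RXR and CEBPb were both called in all 8 livers of 27 h at chr9:121812600-121813776 and at chr9:121814538-121815093. A second group of CEBP regions lay further along the window. There chr9:121834278-121834701 (33 libraries) had CEBPa in 14, CEBPb in 13 and RXR in 6 of 14 libraries, chr9:121832512-121833316 (32 libraries) had CEBPa in 14, CEBPb in 12 and RXR in 6, and chr9:121835770-121836196 had CEBPb in all 14. RXR prevailed at chr9:121860826-121861390 and at chr9:121821873-121822664, with RXR in all 14 libraries and CEBPa and CEBPb together in 3 of 28 at each. At chr9:121799013-121799962 RXR peaks were wide, 627 to 889 bp, against 223 to 500 bp for CEBPa and 223 to 514 bp for CEBPb. Some RXR regions were called at one time more than at the other. The region chr9:121790008-121790380 had RXR peaks in 1 of 3 TCPOBOP and 2 of 3 vehicle livers at 3 h and in all 8 livers at 27 h, in different animals.

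At Abcb11 RXR was called in every liver at 3 regions. The highest mean RXR widths stood at chr2:69223850-69224925, where RXR peaks measured 536 to 804 bp, and at chr2:69180486-69181275, where they measured 677 to 748 bp in all 14 RXR libraries. In chr2:69180486-69181275 the CEBP peaks were narrower, 201 to 500 bp for CEBPa and 196 to 552 bp for CEBPb, and each CEBP peak of a 27 h liver overlapped the RXR peak of that liver. The centres of the CEBPa and CEBPb peaks lay at a median 553 and 570 bp from the left edge, against 414 bp for RXR. The neighbour chr2:69179238-69179803, 682 bases before it, had CEBPa in all 14 and CEBPb in 12 of 14 libraries and no RXR peak in any. CEBP peaks without RXR were found also at chr2:69202877-69203258, in 13 of 14 libraries for each CEBP factor, and at chr2:69218277-69218665. The region chr2:69230121-69230471 was the reverse, with RXR in all 6 livers at 3 h, in 2 of 4 TCPOBOP and 2 of 4 vehicle livers at 27 h and no CEBP peak. The region chr2:69043093-69044256 had a peak in 41 libraries and missed CEBPa in TCPOBOP liver D1 of 27 h alone. Of the 3 regions its RXR peaks varied most, from 206 bp in vehicle liver A3 to 1010 bp in vehicle liver A1.

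**Figure D2:**
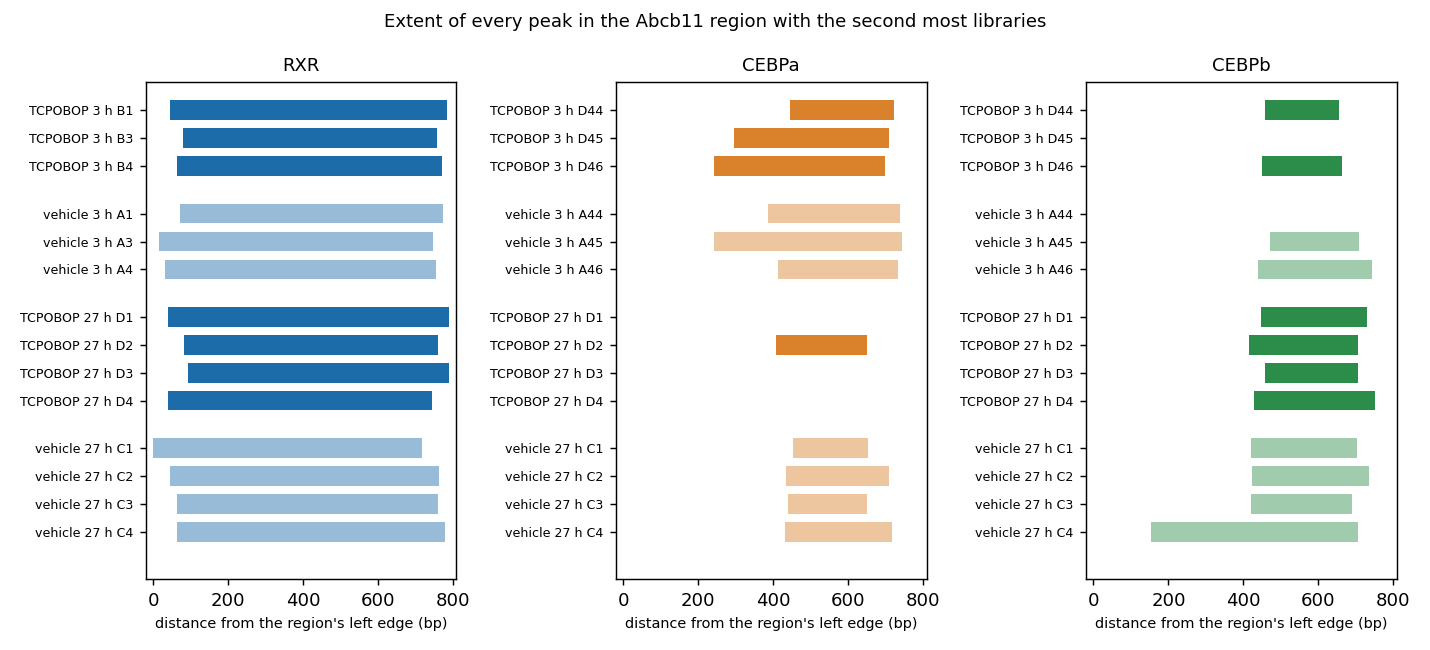
Extent of each peak in the Abcb11 region chr2:69180486-69181275, in bp from its left edge (x axis), by liver (rows) and factor (panels). RXR peaks of 677 to 748 bp stand in all 14 RXR libraries, and CEBPa at 27 h has a peak in 1 of 4 TCPOBOP and 4 of 4 vehicle livers.

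The pattern of factors at 27 h was counted where a factor was called in all 8 livers, which 27 members met for at least 1 factor (9 at Cyp7a1, 11 at Cyp8b1 and 7 at Abcb11). RXR together with CEBPb, with CEBPa missing in at least 1 liver, was the pattern of 7 of these (25.9%), against 5.6% of 31916 such regions in the genome. This pattern was found at 2 Cyp7a1, 2 Cyp8b1 and 3 Abcb11 regions. CEBPa was not absent from these 7 regions. At chr2:69223850-69224925 it was called in 1 of 4 TCPOBOP and 1 of 4 vehicle livers. At chr4:6165858-6166557 and chr2:69043093-69044256 it was called in 3 of 4 TCPOBOP and 4 of 4 vehicle livers, and the others lay between. Each CEBPa list of 27 h was also shorter than every CEBPb list of 27 h. RXR alone was the pattern of 6 (22.2%, against 25.7%), CEBPb alone of 6 (22.2%, against 28.3%), and CEBPa with CEBPb of 6 (22.2%, against 29%). All 3 factors met it at 2 members (7.41%, against 10.9%), Cyp7a1 chr4:6185100-6185673 and Cyp8b1 chr9:121812600-121813776, and CEBPa alone at none. RXR with CEBPb was the only pattern more frequent among the members than in the genome, and the shares, which rest on 27 regions, are descriptions with no test.

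TCPOBOP livers and vehicle livers did not differ detectably in the number of peaks in the 3 windows. With so few livers no adjusted call was possible, whatever the values. RXR had 22, 21 and 25 peaks in TCPOBOP livers B1, B3 and B4 at 3 h, against 37, 19 and 24 in vehicle livers A1, A3 and A4, and the groups overlapped. Means were 22.7 ± 2.08 peaks in TCPOBOP livers and 26.7 ± 9.29 in vehicle livers (SD, n = 3 each; two-sided exact permutation test, p = 0.8, adjusted p = 1 over 6 comparisons). The high value of A1 came from the longest RXR list, of 52727 peaks. At 27 h RXR had 21.8 ± 1.89 peaks in TCPOBOP livers and 21.5 ± 3.51 in vehicle livers (exact p = 1; SD over 4 livers each). CEBPa at 3 h had 20.7 ± 3.51 peaks in TCPOBOP livers and 20.7 ± 3.79 in vehicle livers (exact p = 1; SD over 3 livers each).

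CEBPa at 27 h had 21, 22, 21 and 16 peaks in TCPOBOP livers D1 to D4, against 19, 26, 24 and 26 in vehicle livers C1 to C4. The TCPOBOP mean of 20 ± 2.71 was lower than the vehicle mean of 23.8 ± 3.30 (SD, n = 4 each), but the groups overlapped and the difference of -3.75 peaks missed the threshold (exact p = 0.171, adjusted p = 0.4). It was -2.42 peaks without D4 and -5.33 without C1, where the groups no longer overlapped (exact p = 0.0286, adjusted p = 0.171). CEBPb at 27 h had 38, 38, 34 and 33 peaks in TCPOBOP livers, against 30, 35, 29 and 33 in vehicle livers, with means of 35.8 ± 2.63 in TCPOBOP livers and 31.8 ± 2.75 in vehicle livers (SD, n = 4 per treatment; exact p = 0.143, adjusted p = 0.4). CEBPb at 3 h had 20, 19 and 12 peaks in TCPOBOP livers, against 11, 8 and 15 in vehicle livers, with means of 17.0 ± 4.36 in TCPOBOP livers and 11.3 ± 3.51 in vehicle livers (exact p = 0.2, SD over 3 livers each, adjusted p = 0.4). The smallest p these exact tests allow is 0.1 at 3 h and 0.0286 at 27 h, and the smallest adjusted p is 0.1 and 0.0571, so no adjusted call was possible. List lengths moved the same way at 27 h, with 20396 to 29066 CEBPa peaks in TCPOBOP livers and 26145 to 35663 in vehicle livers, and 45877 to 55513 CEBPb peaks in TCPOBOP livers and 39275 to 47279 in vehicle livers. Per 10000 peaks of the list, the CEBPa and CEBPb differences at 27 h had the opposite sign (0.04999 and -0.0939 peaks, TCPOBOP minus vehicle). At 3 h the same scaling separated the groups. RXR had 5.43, 6.23 and 6.95 peaks per 10000 in TCPOBOP livers B1, B3 and B4, against 7.02, 8.59 and 7.30 in vehicle livers A1, A3 and A4, so every TCPOBOP liver was lower (difference -1.43; exact p = 0.1, the smallest possible, adjusted p = 0.3). CEBPb had 8.70, 8.47 and 7.08 in TCPOBOP livers D44 to D46, against 6.28, 6.72 and 6.59 in vehicle livers A44 to A46, so every TCPOBOP liver was higher (difference 1.55; exact p = 0.1, adjusted p = 0.3). With lists of equal length the RXR difference at 3 h was -1.67 peaks, TCPOBOP minus vehicle (exact permutation test, p = 0.6). That of CEBPb at 3 h was 2 peaks (exact permutation test, p = 0.3). The part of depth in these values was not tested.

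**Figure D3:**
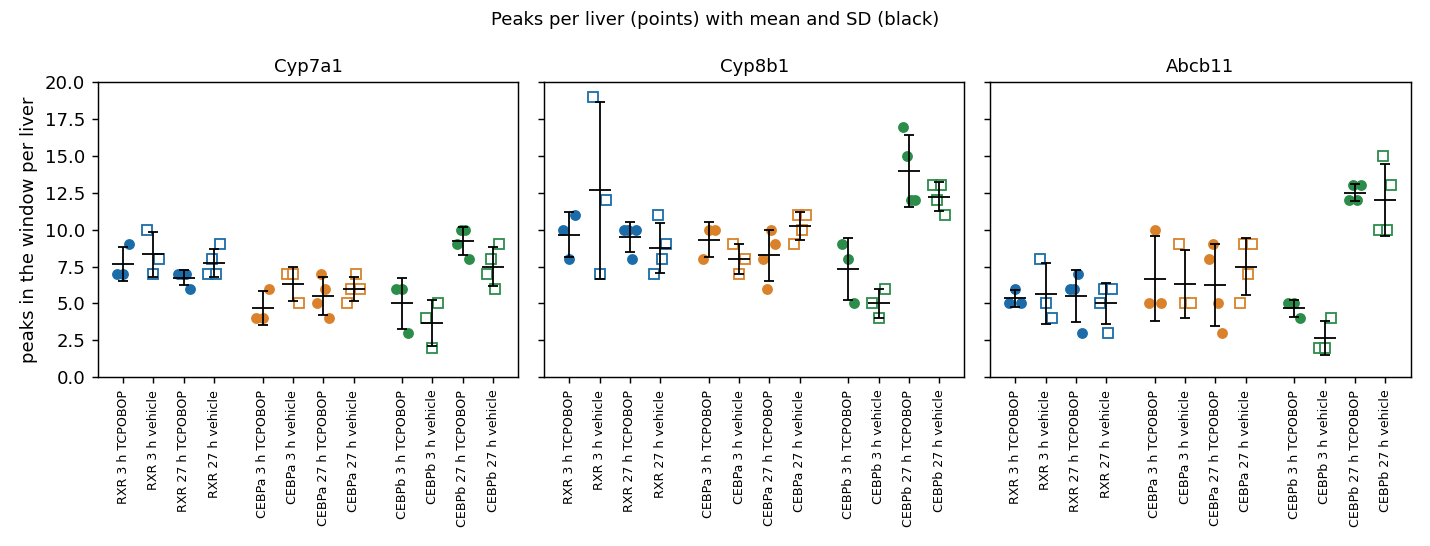
Number of peaks per liver in each gene window (y axis) by factor, time and treatment (x axis). Filled circles are TCPOBOP livers, open squares vehicle livers, and black marks the mean with SD. TCPOBOP and vehicle livers overlap or touch in every pair, and at Abcb11 the 8 CEBPb libraries of 27 h have 10 to 15 peaks.

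Few members differed between treatments in which livers had a peak. Gained means a peak in each TCPOBOP liver and in no vehicle liver, and lost the reverse. For RXR none of 40 members with a peak at 3 h was gained or lost (0.292% and 0.113% of 63014 regions in the genome), and none of 36 at 27 h (0.286% and 0.234%). For CEBPa none of 35 members was gained or lost at 3 h (0.32% and 0.558%) and none of 36 at 27 h (0.0383% and 0.207%). For CEBPb none of 23 members was gained or lost at 3 h (0.6% and 0.0811%). At 27 h 1 of 52 members was gained for CEBPb and none was lost (0.362% and 0.0373%). The 1 gained member is 1.92% of 52, a share that rests on 1 region.

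The gained CEBPb region lay in the Abcb11 window at chr2:69037536-69037942. Its CEBPb peaks measured 241, 255, 238 and 267 bp in TCPOBOP livers D1 to D4, and no vehicle liver had one (Fisher's exact test, two-sided p = 0.0286, adjusted p = 1 over 91179 regions). RXR had a peak of 285 bp there in D1, which overlapped the CEBPb peak of that liver, and in no other liver. CEBPa had none in any of 14 libraries, and CEBPb none at 3 h. The next region, 133 bases before it, held RXR peaks in 1 of 4 TCPOBOP and 1 of 4 vehicle livers at 27 h. By its definition a gained region stays gained when any 1 liver is left out, so leaving out livers was no check of this region.

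A difference of at least 3 livers at 27 h was met by 1 further member. CEBPa at chr2:69180486-69181275, in the Abcb11 window, had a peak in 1 of 4 TCPOBOP livers (D2, 243 bp) and in all 4 vehicle livers (201, 275, 209 and 285 bp; Fisher's exact test, two-sided p = 0.143, adjusted p = 1). RXR and CEBPb were called there in all 8 livers, and CEBPa at 3 h in all 6. The CEBPa lists of D1, D3 and D4 held 29066, 28825 and 20396 peaks, against 28818 in D2 and 26145 to 35663 in vehicle livers. With each list shortened to its widest peaks, as many as the shortest list of the comparison held, the difference was -1 liver, TCPOBOP minus vehicle. In the full lists C1 to C4 and D2 had the peak, and D1, D3 and D4 did not. Beyond the shortened lists, the part of list length in this was not tested. Without D2 the region counted as lost. Of all CEBPa regions at 27 h, 2.14% had at least 3 more vehicle than TCPOBOP livers and 0.4% the reverse, which no member had. For CEBPb the gained region was the only member with at least 3 more TCPOBOP livers (2.52% of regions), and no member had the reverse (0.496%). For RXR no member had either (1.4% and 1.89%).

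Fisher's exact test with Benjamini-Hochberg adjustment called 0% of regions in each of the 6 comparisons. At 27 h its smallest p is 0.0286, so an adjusted p under 0.05 would need most regions to separate the groups fully. The 0% is therefore no result about the members. At an unadjusted p under 0.05 Fisher's test called 0.52% of regions for RXR, 0.246% for CEBPa and 0.399% for CEBPb at 27 h, with 1 member among them (the gained CEBPb region), and none at 3 h, where it cannot go below 0.1. More members were called in every liver of both treatments. For RXR they numbered 16 of 40 at 3 h and 15 of 36 at 27 h (27.5% and 23.9% of regions in the genome). For CEBPa they numbered 11 of 35 and 8 of 36 (26.4% and 20.6%), and for CEBPb 4 of 23 and 21 of 52 (20.4% and 25.8%).

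The most often called Cyp8b1 region, chr9:121812600-121813776, held 2 CEBP peaks that only the 1080 bp RXR peak of TCPOBOP liver D1 joined. Merged over the 28 CEBP libraries alone, an alternative chosen after the peaks were seen, the left peak spanned chr9:121812664-121813066 and was called in all 42 libraries. The right peak spanned chr9:121813355-121813698. At 3 h CEBPa was called on the right peak in 0 of 3 TCPOBOP livers and in 3 of 3 vehicle livers (A44 269 bp, A45 263 bp and A46 256 bp). In the same animals CEBPb was called there in 2 of 3 TCPOBOP livers (D44 and D45) and in 0 of 3 vehicle livers. At 27 h CEBPa was called in 3 of 4 TCPOBOP livers, all but D2, and in 4 of 4 vehicle livers, and CEBPb in all 8. RXR was called there in TCPOBOP livers B1 and D1 and in vehicle liver A1. With peaks merged within the comparison the right peak was the 1 lost member of 36 for CEBPa at 3 h, where 0.568% of 56005 regions were lost. With 3 livers a group an exact test cannot go below 0.1, and the peak was singled out after its values were seen.

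**Figure D4:**
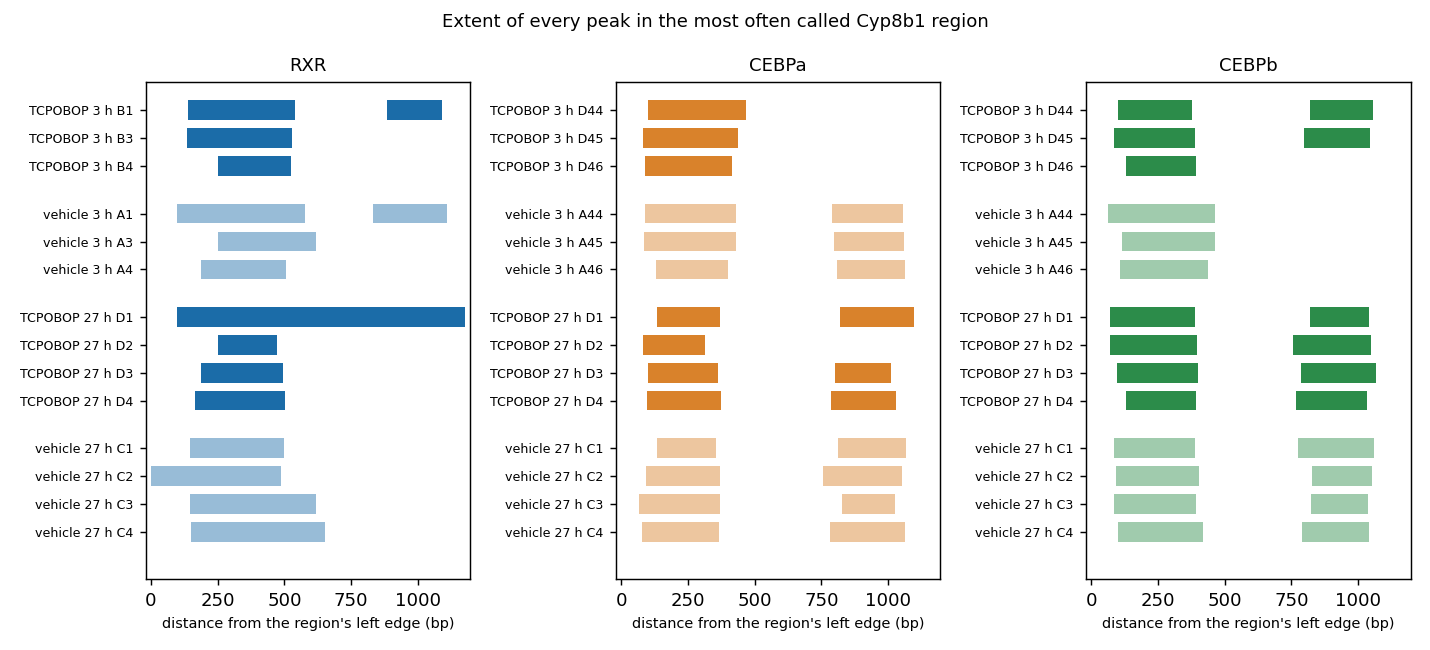
Extent of each peak in the Cyp8b1 region chr9:121812600-121813776, in bp from its left edge (x axis), by liver (rows) and factor (panels). The left peak stands in all 42 libraries. The right CEBPa peak at 3 h stands in 0 of 3 TCPOBOP and 3 of 3 vehicle livers, and the right CEBPb peak at 3 h in 2 of 3 TCPOBOP and 0 of 3 vehicle livers.

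No member changed in peak width by limma with Benjamini-Hochberg adjustment over all regions with 1 peak in every library of a comparison. Width was taken as log2 bp minus the median of the library, since it is the only value a peak carries besides its place. Members tested numbered 15 for RXR at 3 h and 15 at 27 h (0% and 0.0168% of regions called in the genome), 10 and 6 for CEBPa (0.00704% and 0.0244%), and 3 and 19 for CEBPb (0% and 0.018%). At an unadjusted p under 0.05 limma called 2 of 10 members for CEBPa at 3 h (4.85% of regions) and 1 of 19 for CEBPb at 27 h (6.78%), and none in the other comparisons.

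The CEBPb member was Cyp7a1 chr4:6165858-6166557. It measured 271, 315, 593 and 265 bp in TCPOBOP livers D1 to D4, against 476, 557, 537 and 563 bp in vehicle livers C1 to C4. The peaks of D1, D2 and D4 were shorter than every vehicle peak, and that of D3 was longer than every vehicle peak. The relative width was -0.66 log2 units (SE 0.24; limma adjusted p = 0.678), TCPOBOP minus vehicle. Without D3 the difference was called (limma adjusted p = 0.0422). The CEBPb peaks of D1, D2 and D4 covered the left part of the region and the RXR peaks the right part. RXR peaks there measured 312 to 435 bp in TCPOBOP livers and 297 to 361 bp in vehicle livers.

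**Figure D5:**
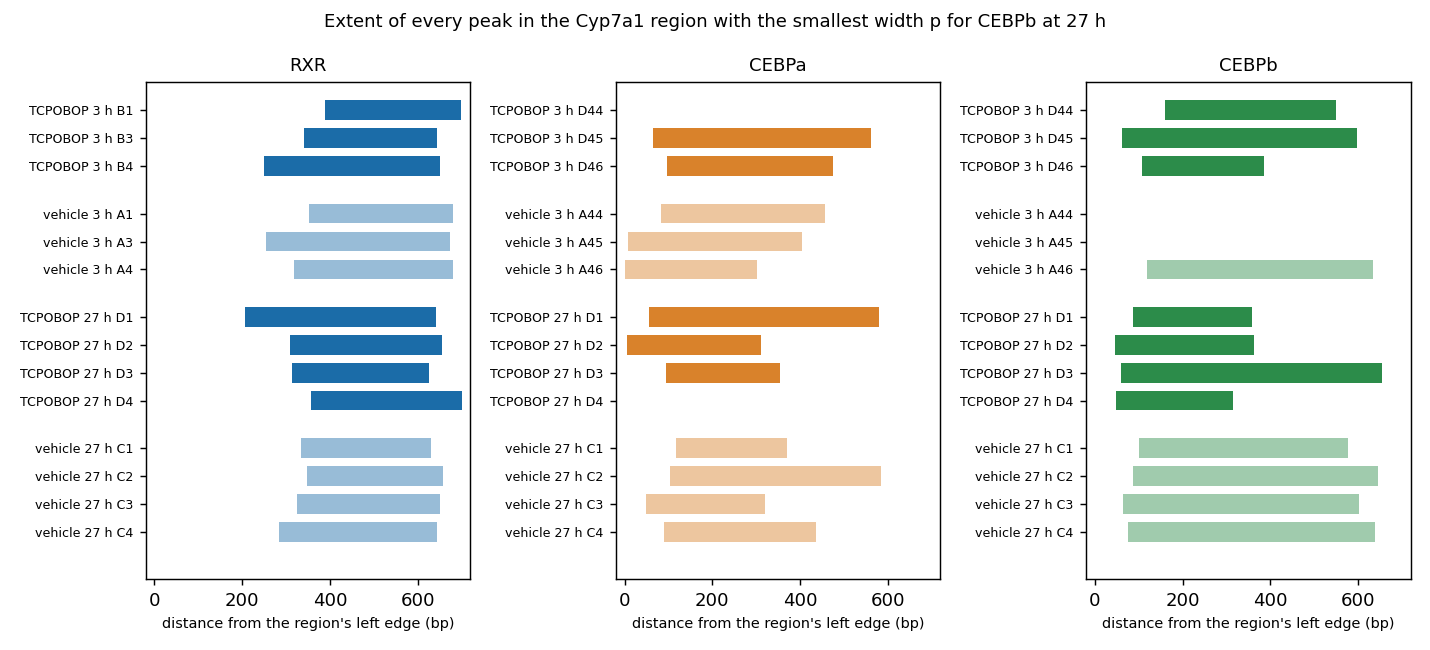
Extent of each peak in the Cyp7a1 region chr4:6165858-6166557, in bp from its left edge (x axis), by liver (rows) and factor (panels). CEBPb peaks at 27 h measure 265 to 593 bp in TCPOBOP livers and 476 to 563 bp in vehicle livers.

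The 2 CEBPa members had lower mean widths in TCPOBOP livers at 3 h. At Abcb11 chr2:69043093-69044256 they measured 249, 286 and 259 bp in TCPOBOP livers D44 to D46, against 397, 365 and 354 bp in vehicle livers A44 to A46, with no overlap between the groups (-0.41 log2 units, SE 0.12; limma adjusted p = 0.962). At 27 h the CEBPa peaks of that region overlapped between treatments, with 227 to 271 bp in 3 TCPOBOP livers and 226 to 342 bp in 4 vehicle livers. At Cyp8b1 chr9:121832512-121833316 CEBPa peaks of 3 h measured 277, 325 and 368 bp in TCPOBOP livers, against 326, 758 and 671 bp in vehicle livers, and the groups overlapped (-0.70 log2 units; limma adjusted p = 0.992). The RXR peaks of Abcb11 chr2:69180486-69181275 varied little, with 748, 677, 697 and 702 bp in TCPOBOP livers D1 to D4 and 717, 718, 698 and 716 bp in vehicle livers C1 to C4 at 27 h.

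Factors were compared within the same livers, both treatments together. At 27 h CEBPb had more peaks than CEBPa at Abcb11, with 12.3 ± 1.67 and 6.88 ± 2.295 (SD, n = 8 livers), and was higher in 8 of 8 livers (exact paired permutation test, adjusted p = 0.0312 over 12 tests). It was higher also at Cyp8b1, with 13.1 ± 1.96 and 9.25 ± 1.67 peaks (7 of 8 livers and equal in 1; exact, adjusted p = 0.0375), and at Cyp7a1, with 8.38 ± 1.41 and 5.75 ± 1.04 (7 of 8 livers; exact, adjusted p = 0.0375). The Cyp7a1 call was lost (adjusted p = 0.0625) without any 1 liver except C3, and the Cyp8b1 call without any 1 liver except C4. The RXR libraries of 27 h carry another run code in their descriptions than the CEBP libraries. Antibody and run code therefore cannot be told apart in the comparisons of RXR with either CEBP factor. RXR had fewer peaks than CEBPb at Abcb11, with 5.25 ± 1.49 against 12.3, and at Cyp8b1, with 9.13 ± 1.36 against 13.1, each lower in 8 of 8 livers (exact, adjusted p = 0.0312). At Cyp7a1 RXR averaged 7.25 ± 0.886 peaks, which did not differ detectably from CEBPb (exact, adjusted p = 0.15) or from CEBPa (exact, adjusted p = 0.0625). RXR and CEBPa did not differ detectably at Cyp8b1, with 9.13 and 9.25 peaks (mean difference -0.125, SD 2.295; exact, adjusted p = 1), and the mean difference of -1.63 ± 2.07 peaks (RXR minus CEBPa, SD) at Abcb11 missed the threshold (exact, adjusted p = 0.125).

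At 27 h the lists held 39275 to 55513 peaks for CEBPb, 20396 to 35663 for CEBPa and 22619 to 36148 for RXR. After all lists were cut to equal length, the 27 h difference CEBPb minus CEBPa was -0.375 peaks at Cyp7a1, -1.25 at Cyp8b1 and 0.75 at Abcb11, and RXR minus CEBPb was 2.38, 0.875 and -2.13, none of them called. The excess of CEBPb peaks at Abcb11 over RXR kept its direction but not its call. At 3 h CEBPb had fewer peaks than CEBPa in the same 6 livers, 4.33 ± 1.63 and 5.50 ± 1.38 at Cyp7a1, 6.17 ± 1.94 and 8.67 ± 1.21 at Cyp8b1 and 3.67 ± 1.37 and 6.50 ± 2.35 at Abcb11, and none was called (exact, adjusted p = 0.409, 0.0938 and 0.0938). After the same shortening these differences had the opposite sign. Per 10000 peaks of the list, Cyp7a1 and Cyp8b1 also had the opposite sign, and Abcb11 kept its sign (-0.269).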

How the data were processed

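Chromatin immunoprecipitation with antibodies to RXRa, CEBPa and CEBPb was sequenced from single livers. The submitters' processing notes name Bowtie2 2.3.2, MACS2 and the assembly mm9. The authors deposited 1 peak list per library, with chromosome, start, end and name and no score, so no stricter threshold could be set, and a missing peak may be signal under the caller's threshold. Depth is unknown. Starts were raised by 1.

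Peaks overlapping by 1 bp or more were merged over 42 lists with Python 3.11.15 and pandas 2.3.3. Exact permutation and Fisher tests used scipy 1.17.1, and widths used limma 3.58.1 (R 4.3.3). p-values were adjusted by Benjamini-Hochberg, with a threshold of 0.05. Functions were tested on simulated data. The permutation test of treatment sets a difference against the spread between livers, and the paired test against differences between antibodies within livers. Fisher's test uses only the number of livers with a peak. The limma test takes the spread between livers together with that of the other regions.

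The members and motif list were chosen with earlier results of these data known. Regions named in the text are the 5 with most libraries per window, those gained or lost, those differing by 3 or more livers, and others singled out after their values were seen. Gene positions on mm9, peak sequences and other bile acid genes were not analysed here. Alternatives were input peaks removed, equal list lengths, other merging, covered bp, and each liver left out.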

Additional observations from a re-analysis of the deposited data

Results flagged for a closer look

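Groups of 4 livers at 27 h were examined for 1 liver far from the other 3, in 84 sets of values, and 8 stood out. For continuous values chance flags about 1 set in 20. This rate does not hold for numbers of peaks, where ties can make a difference of 1 peak stand out. TCPOBOP liver D4 had 16 CEBPa peaks in the 3 windows, against 21 or 22 in the other TCPOBOP livers, and its CEBPa list was the shortest at 27 h with 20396 peaks. D4 also had 6 RXR peaks at Cyp7a1, where the others had 7, and TCPOBOP liver D3 had 8 RXR peaks at Cyp8b1, where the others had 10.

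Peak widths stood out in 5 sets. At Abcb11 chr2:69180486-69181275 the CEBPb peak of vehicle liver C4 measured 552 bp, against 272 to 311 bp in the other vehicle livers, and the RXR peak of vehicle liver C3 measured 698 bp, against 716 to 718 bp. At Cyp7a1 the CEBPb peak of vehicle liver C4 at chr4:6149707-6150421 measured 639 bp, against 393 to 423 bp, and that of TCPOBOP liver D3 at chr4:6165858-6166557 measured 593 bp, against 265 to 315 bp. At Cyp8b1 chr9:121812600-121813776 the RXR peak of TCPOBOP liver D1 measured 1080 bp, against 221 to 336 bp in the other TCPOBOP livers.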

How the results depend on the processing

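Depth is unknown, and the number of peaks in a window moved with the length of the list. TCPOBOP minus vehicle, the CEBPa difference at 27 h was 0.04999 per 10000 peaks and 0.25 peaks with lists of equal length, in place of -3.75, and that of CEBPb at 27 h was -0.0939 per 10000 peaks, in place of 4. Without 1 liver the RXR difference ranged from -7.83 to 1.17 peaks at 3 h (above 0 without A1) and from -0.917 to 1.42 at 27 h (below 0 without D1, D2, C1 or C3), and that of CEBPa at 27 h from -5.33 (without C1) to -2.42 (without D4). The replicate numbers do not pair the livers (correlations of deviations -0.0318 to 0.0963). A replicate block cannot change a difference of means between groups of equal size, and only its p-value could move. For CEBPb the exact permutation test gave p = 0.25 at 27 h and p = 0.5 at 3 h with the block, in place of 0.143 and 0.2. The block called 0 member widths. Peaks merged within the comparison gave 1 lost CEBPa region at 3 h. Counting regions in all but at most 1 liver gave gained 3, 1, 2, 3 and 3 for RXR 3 h, RXR 27 h, CEBPa 3 h, CEBPb 3 h and CEBPb 27 h, and lost 8, 1, 1, 2 and 1 for RXR 3 h, RXR 27 h, CEBPa 3 h, CEBPa 27 h and CEBPb 3 h. No share of all regions was taken under this looser rule or for the counts without 1 liver that follow. These counts are therefore no result about the members. Without 1 liver, gained regions ranged from 0 to 1 for RXR 3 h (1 without A1) and CEBPa 3 h (1 without D44 or D46) and 0 to 2 for CEBPb 3 h (1 without D46, 2 without A46), lost regions from 0 to 3 for RXR 3 h (1 without A4, 3 without A3) and 0 to 1 for CEBPa at 3 h (1 without A45) and at 27 h (1 without D2), and changed widths from 0 to 1 for CEBPb 27 h (1 without D3). With lists of equal length, CEBPb minus CEBPa was 1, 1 and 0.667 peaks at Cyp7a1, Cyp8b1 and Abcb11 at 3 h and -0.375, -1.25 and 0.75 at 27 h, and RXR minus CEBPb was 2.38, 0.875 and -2.13. Per 10000 peaks, CEBPb minus CEBPa was 0.323, 0.232 and -0.269 at Cyp7a1, Cyp8b1 and Abcb11 at 3 h and -0.197, -0.426 and 0.293 at the 3 windows at 27 h, and RXR minus CEBPb was 0.723, 0.345 and -0.774. With the pairing by liver ignored, RXR minus CEBPa at Cyp7a1 (1.5 peaks) was called (unpaired exact permutation, adjusted p = 0.0286). That test takes libraries of the same liver as independent, so this is no valid call. The paired test did not call it (exact paired permutation test, adjusted p = 0.0625). Without 1 liver, CEBPb minus CEBPa at 27 h ranged from 2.43 to 3.14 at Cyp7a1 and from 3.14 to 4.43 at Cyp8b1, and RXR minus CEBPa at Cyp8b1 from -0.714 to 0.143. The cause of these changes was not tested beyond what the shorter lists and fewer livers show. The other alternatives, input peaks removed, covered bp, regions for peaks and merging from 100 bp, kept the call, and the direction except for CEBPa at 3 h, where the difference of 0 peaks became 1 region and -403.3 bp.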
